A study of Homo sapiens with 22 samples.

Results

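The NRF2 antioxidant response was followed through 8 genes taken by name from the deposited table of 36859 genes. They are NFE2L2, KEAP1, GCLC, GCLM, NQO1, HMOX1, TXNRD1 and SRXN1, and all 8 were found by symbol and all 8 passed the filter on low values, a normalized count of 10 or more in 2 or more libraries, as did 14585 genes. RNA-seq had been run on RPTEC, renal proximal tubule epithelial cells immortalized with hTERT and kept under G418, to ask how loss of the histone methyltransferase SETD2 changes these cells. The 22 libraries fall into 11 groups of 2. In 2% serum were untreated WT, WT treated for 72 h with TGF-β at 10 ng/ml, KO1 and KO2 (knockout clones of SETD2), and a line labelled KO2_Rescue. In 10% serum were Rescue1 and Rescue2, clones with SETD2 put back, and WT lines made with lentivirus for OCT2, PRRX1 or SOX2, or with the control vector (labelled empty vector and called WT eGFP here). KO1 and KO2 are each a single clone made by CRISPR/Cas9 with 1 guide in exon 3 of SETD2. Rescue1 and Rescue2 are single colonies of KO cells carrying lentiviral FLAG-tagged SETD2 under blasticidin, and their clone names extend that of KO2. The WT lines with a factor or vector were selected in bulk with puromycin. Nothing in the labels says that the 2 libraries of a group came from separate cultures, so p-values measure only the spread between these libraries, which may be technical.

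NFE2L2 encodes NRF2, a transcription factor that binds antioxidant response elements together with small MAF proteins. KEAP1 holds NRF2 in the cytoplasm and hands it to a ubiquitin ligase, and reactive electrophiles or oxidants on KEAP1 let NRF2 escape, so NRF2 activity is set mostly at the level of the protein and its mRNA need not follow. The targets make glutathione (GCLC, the catalytic subunit of the rate-limiting ligase, and GCLM, its modifier subunit), reduce quinones (NQO1), open heme (HMOX1), reduce thioredoxin (TXNRD1) and repair oxidized peroxiredoxins (SRXN1). In the kidney the proximal tubule is a main site of oxidant load and of this response.

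Because the members share the antioxidant response element as textbook targets, its core was looked for in the 300 bases from 250 before to 50 after each annotated start (RefSeq, GRCh38.p14). The letters searched were TGACNNNGC on both strands. These windows held 10 starts of 7 members. HMOX1 had no entry in that table. A match was found in 4 of the 10 windows, for GCLM, KEAP1 and both starts of TXNRD1, beside 13.3% of 35116 windows of all genes and 19.4% of 93 windows of the other pathway genes described later. The windows of NFE2L2, GCLC, NQO1 and SRXN1 did not hold these letters, which says nothing of elements further away. Of the 6 matches, 4 are shown because the genes beside them behaved differently. TXNRD1 passed the test described below as higher in both knockout clones, GCLM and KEAP1 as higher in neither. The capitals mark the match, on the strand on which it reads.
TXNRD1, first start, chr12:104215670-104215698, plus strand, centred 95 bases before the start: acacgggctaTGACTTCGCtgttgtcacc
TXNRD1, second start, chr12:104286920-104286948, minus strand, centred 98 bases before the start: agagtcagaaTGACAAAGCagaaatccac
GCLM, chr1:93909446-93909474, plus strand, centred 30 bases before the start: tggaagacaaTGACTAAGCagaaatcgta
KEAP1, second start, chr19:10502784-10502812, plus strand, centred 27 bases before the start: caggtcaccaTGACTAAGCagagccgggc
A match is a description of the letters and not a measured site.

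The library totals were 11674491 to 16758645 normalized counts, or about 7700000 to 19000000 reads. SETD2 mRNA was lower in both knockout clones and not lost. It stood at 1852 and 2061 normalized counts in WT, 1046 and 1130 in KO1, and 1050 and 1052 in KO2, and at 9764 to 10445 in Rescue1 and Rescue2. The libraries labelled KO2_Rescue held 834 and 820, below KO2, so the label goes against the SETD2 mRNA and they are called the libraries labelled KO2 rescue throughout. Of 14 proximal tubule markers 7 to 9 were at 10 or more in each library. Their sum was 19788 and 21511 in WT, 12552 and 12615 in KO1, 16698 and 17676 in KO2, 26345 and 26947 in the libraries labelled KO2 rescue and 28606 to 31825 in Rescue1 and Rescue2. PAX8 and KRT8 were high, whereas LRP2, SLC34A1, SLC5A2 and SLC22A6, which define the mature tubule, were at or near 0. The sum of 7 fibroblast markers ran from 818 to 236448 and was highest in KO1 (223367 and 236448), then KO2 (98938 and 102552), nearly all of it DCN, while the WT libraries stood at 12437 and 831. It was 46389 and 47809 after TGF-β, and 38482 and 40989 in the libraries labelled KO2 rescue. In the knockout clones it was high where NQO1, TXNRD1 and SRXN1 were high, but after TGF-β it lay above WT while NQO1 and TXNRD1 fell, and in the libraries labelled KO2 rescue it lay below KO2 while NQO1 and SRXN1 rose. The part of either marker sum in the members' changes was not tested. In bulk RNA, fewer cells of a type and less RNA per cell cannot be told apart. Endothelial markers summed to at most 154 and leukocyte markers to at most 27.7.

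How far a level in this table can be read was checked on genes of known behaviour. Among 75 ribosomal protein genes, whose products are used in equal amounts, the mean normalized count ranged from 14.9 to 27153, with 25 under 1000. Thioredoxin (TXN), the substrate of TXNRD1, was at 0 to 32.5, and GAPDH ran from 247 to 8414, with a log2 difference of 2.54 between the WT libraries. The cause was not tested. A low value in this table, such as that of HMOX1 or of the marker genes near 0, is therefore not evidence that a gene is weakly expressed. The spread between the 2 libraries of a group shows which members are measured firmly. Averaged over 11 groups, the absolute log2 difference was 0.059 for SRXN1, where sampling of reads alone gives 0.05. It was 0.076 for NQO1, where sampling gives 0.027, and 0.146 for TXNRD1, where sampling gives 0.017. The largest difference of TXNRD1, 0.53, was between the WT libraries. It was larger for NFE2L2 (0.168, sampling 0.082), GCLM (0.232, sampling 0.097) and GCLC (0.284, sampling 0.07). KEAP1 was at 0.679, where sampling gives 0.078.

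**Figure D1:**
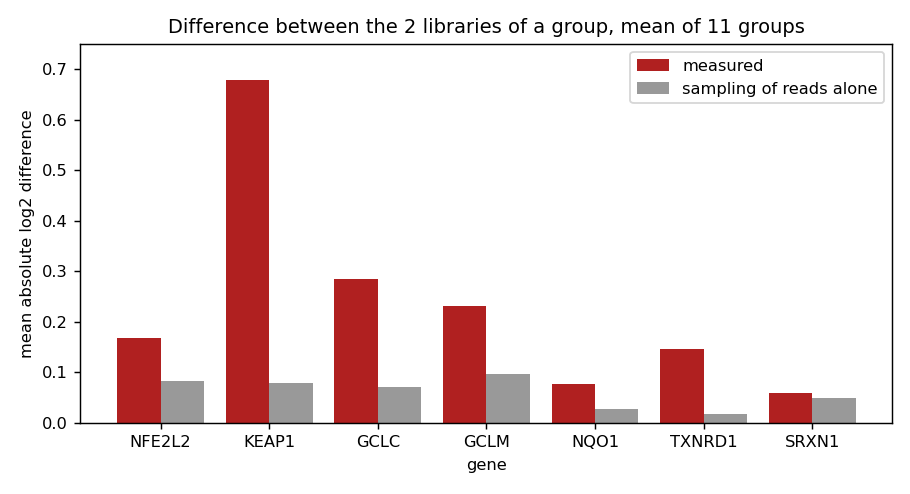
Mean absolute log2 difference between the 2 libraries of a group over 11 groups (vertical axis, red bars) beside the difference that sampling of reads alone gives (grey bars), for 7 members (horizontal axis). SRXN1 sits near its sampling value, while KEAP1 is at 0.679 against 0.078 and TXNRD1 at 0.146 against 0.017.

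NQO1, TXNRD1 and SRXN1 were the only members higher than WT in both knockout clones with an adjusted p below 0.05 (limma). Each was at its highest in KO1 or in the libraries labelled KO2 rescue. TXNRD1, the cytosolic thioredoxin reductase, had 5216 and 7524 normalized counts in WT, 27559 and 24980 in KO1, and 16504 and 14982 in KO2. Both clones lay above WT and KO1 above KO2, with no overlap. On the log2(normalized count + 1) scale it rose by 2.07 ± 0.12 (SE) in KO1 (limma, Benjamini-Hochberg adjusted p = 5.2e-09) and by 1.33 ± 0.12 in KO2 (adjusted p = 1.2e-06). NQO1, the quinone reductase, had 3047 and 3100 in WT, 8944 and 7853 in KO1, and 6041 and 6094 in KO2. It rose by 1.45 ± 0.085 in KO1 (adjusted p = 3.8e-09) and by 0.98 ± 0.085 in KO2 (adjusted p = 5.0e-07), a 1.97-fold change that stops just short of the fold threshold. SRXN1, sulfiredoxin, had 987 and 1035 in WT, 2226 and 1889 in KO1, and 1346 and 1298 in KO2. It rose by 1.02 ± 0.08 in KO1 (adjusted p = 8.4e-08) and by 0.39 ± 0.08 in KO2 (adjusted p = 0.0016). For each of these genes the libraries of either clone lay wholly above those of WT. The same held for GCLC, NFE2L2 and KEAP1, whose changes did not pass the adjusted p in both clones. For KEAP1 the lower KO1 library stood at 622.8 and the higher WT library at 622.4, so they were hardly apart. How many of all genes separate from WT in this way was not counted. The WT libraries, which both clones are set against, differed from each other more than those of any other group, by a median of 0.174 on the log2 scale over 2314 genes with a mean of at least 1000. With each library left out in turn, the change of TXNRD1 stayed between 1.80 and 2.33 in KO1 and between 1.06 and 1.59 in KO2, and that of SRXN1 in KO1 between 0.90 and 1.14, under the fold threshold without WT replicate 1 (0.99) or KO1 replicate 1 (0.90).

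**Figure D2:**
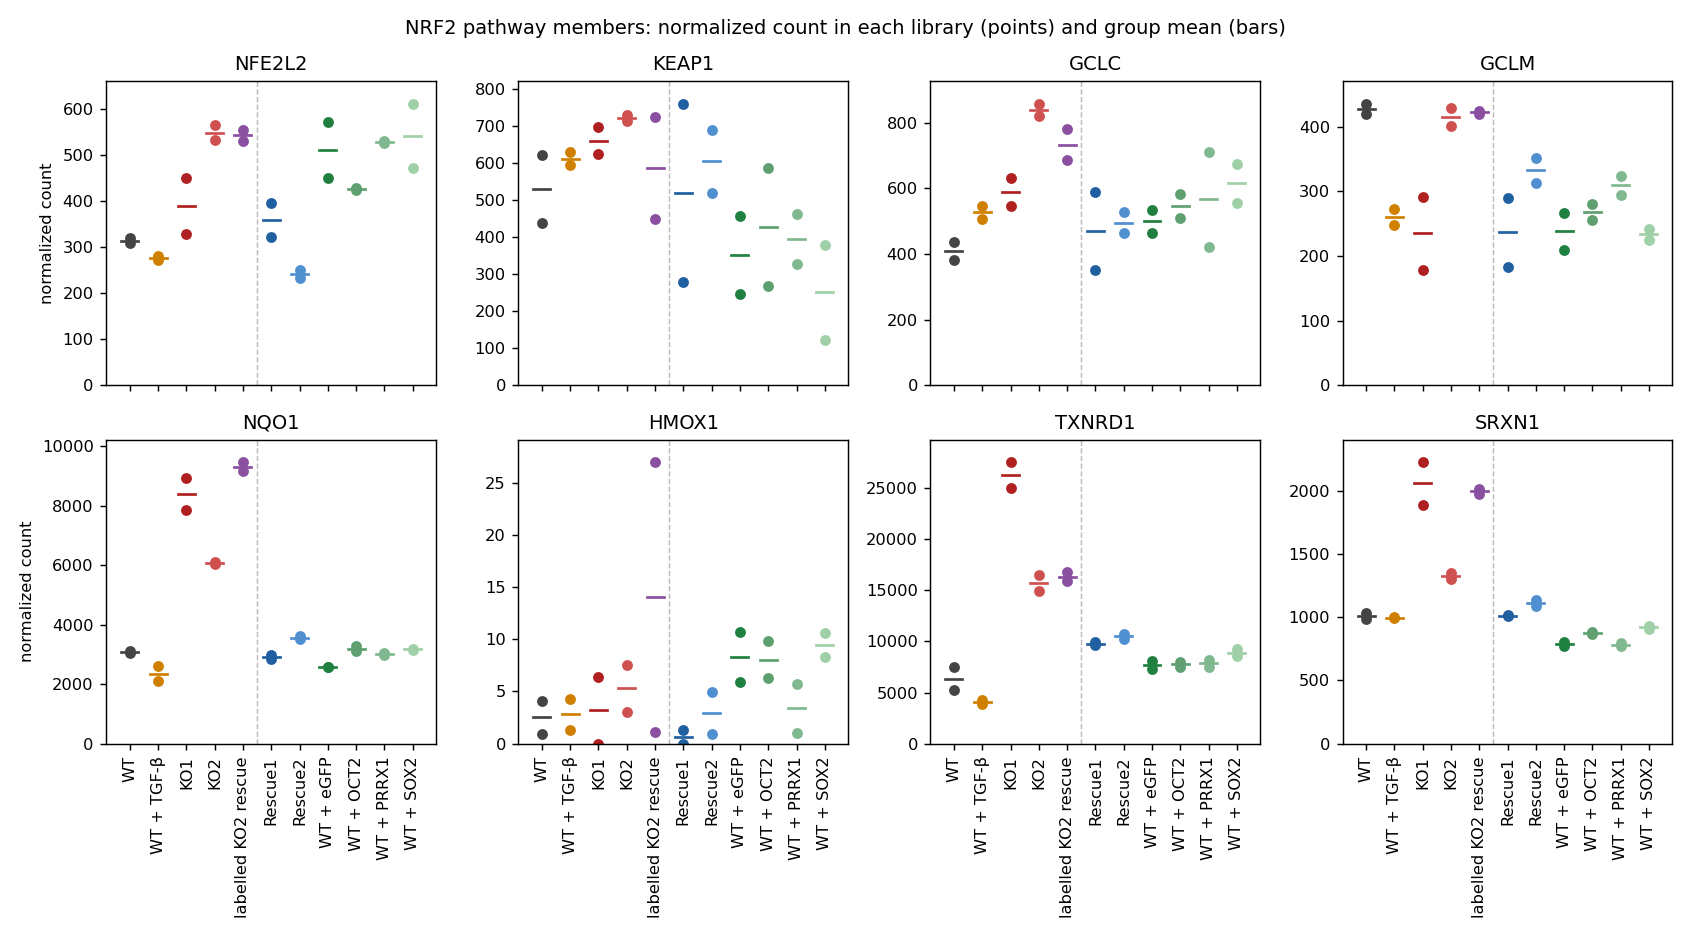
Normalized count (vertical axes, linear, from 0, a separate scale per gene) of the 8 members in each of 22 libraries (points) with the mean of each group of 2 (bars), by group (horizontal axis), and a dashed line between the groups in 2% serum (left) and 10% serum (right). KO1, KO2 and the libraries labelled KO2 rescue stand above all other groups for NQO1, TXNRD1 and SRXN1, whereas HMOX1 lies between 0 and 27.0.

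The glutathione ligase subunits did not follow each other. GCLC had 436 and 383 in WT, 547 and 633 in KO1, and 858 and 822 in KO2. It rose by 1.04 ± 0.24 in KO2 (adjusted p = 0.0038), and its change of 0.52 ± 0.24 in KO1 did not pass (adjusted p = 0.096). GCLM had 420 and 436 in WT, 428 and 401 in KO2, and 178 and 292 in KO1. It fell by 0.90 ± 0.23 in KO1 (adjusted p = 0.0052) and differed by -0.04 ± 0.23 in KO2, where the libraries overlapped those of WT (adjusted p = 0.92). The lower count of GCLM in KO1 rests on libraries that differed by 0.71 on the log2 scale from each other. Without KO1 replicate 2 the change was -1.26, and it was -0.55 when replicate 1 was left out instead.

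Of the regulators, NFE2L2 rose in KO2, and KEAP1 passed the test in neither clone. NFE2L2 had 308 and 320 in WT, 451 and 329 in KO1, and 533 and 565 in KO2. It rose by 0.80 ± 0.17 in KO2 (adjusted p = 0.0020), and its 0.29 ± 0.17 in KO1 did not pass (adjusted p = 0.19). KEAP1 had 438 and 622 in WT, 696 and 623 in KO1, and 728 and 713 in KO2, and its changes of 0.33 ± 0.53 and 0.46 ± 0.53 did not pass (adjusted p = 0.67 and 0.58). HMOX1, heme oxygenase 1, was at 0 to 27.0 in all 22 libraries. In WT it had 4.07 and 0.953, in KO1 6.39 and 0, and in KO2 7.58 and 3.00, and no fold is given for it.

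A gene was called where its adjusted p was below 0.05 and its log2 change exceeded 1 in size. By this rule 3 of 8 members were called in KO1 (NQO1, TXNRD1 and SRXN1) and 2 of 8 in KO2 (GCLC and TXNRD1), all higher. Of all 14585 genes tested, 25% were called in KO1 and 12% called higher. In KO2 these were 16.3% and 9.02%. By adjusted p alone 4 members passed in KO1 and 5 in KO2, beside 39.8% and 28.9% of all genes. The median log2 change of the 8 members, HMOX1 included, was 0.43 in KO1 and 0.85 in KO2, where that of all genes was 0.00 in both. When libraries were brought to equal totals, the median of all genes moved to -0.39 in KO1 and -0.20 in KO2, and the share of calls that were higher fell from 47.7% to 27.9% and from 55.3% to 41.5%. Under that scaling TXNRD1 (1.66 and 1.10) and NQO1 (1.04 and 0.76) still passed the adjusted p in both clones, SRXN1 passed in KO1 (0.61) but not in KO2 (0.16, adjusted p = 0.18), and GCLC in KO2 was at 0.81 and no longer called. GCLC in KO2 was at 0.94 without WT replicate 2, which leaves 1 called member.

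**Figure D3:**
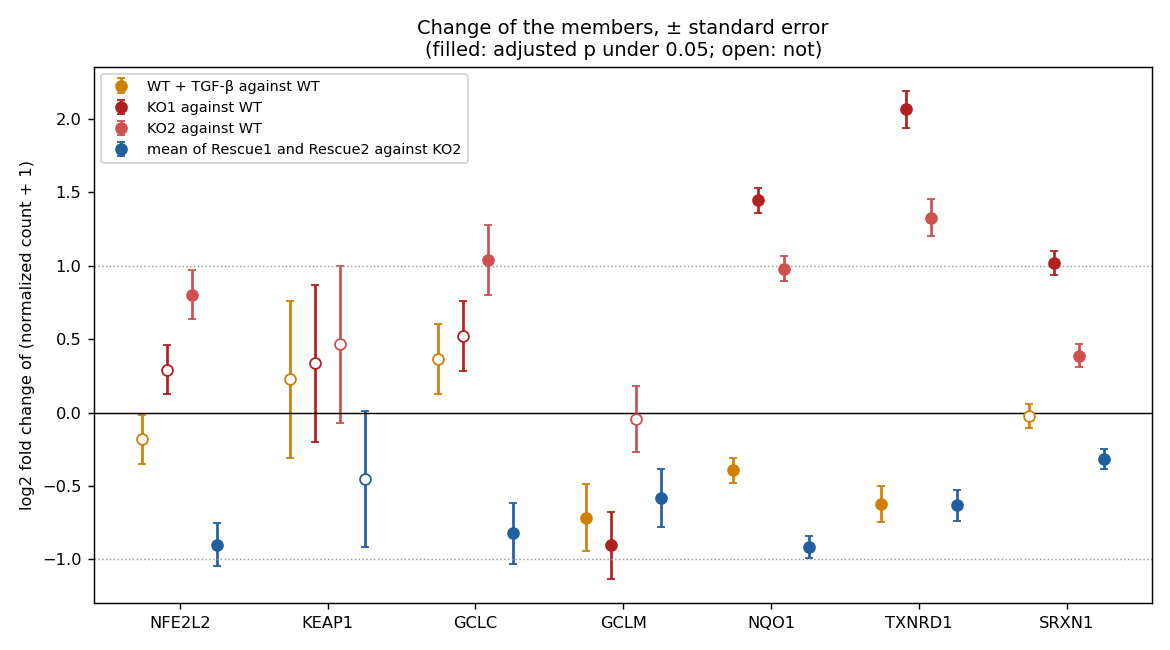
Log2 fold change of (normalized count + 1) with its standard error (vertical axis) for 7 members (horizontal axis) in 4 comparisons (colours), filled where the adjusted p is under 0.05 and open where it is not, with dotted lines at the fold threshold of 1 and -1. TXNRD1, NQO1 and SRXN1 are filled and above 0 in both knockout clones and filled and below 0 for the rescue clones against KO2.

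The clones also differed from each other. KO1 was above KO2 by 0.74 ± 0.12 for TXNRD1 (adjusted p = 9.2e-04), by 0.63 ± 0.08 for SRXN1 (adjusted p = 7.1e-05) and by 0.47 ± 0.085 for NQO1 (adjusted p = 0.0017), while GCLM was lower in KO1 by -0.86 ± 0.23 (adjusted p = 0.018). NFE2L2 differed by -0.51 ± 0.17 (adjusted p = 0.054) and GCLC by -0.51 ± 0.24 (adjusted p = 0.17), both nominally higher in KO2. Both NFE2L2 libraries of KO1 lay below those of KO2. None of the members was called between the clones, where 6.97% of all genes were, and 4 of 8 passed the adjusted p, as did 16% of all genes. The median of all genes moved to -0.21 with libraries scaled to the same total, the share of higher calls fell from 35.5% to 22.6%, and GCLM was then called at -1.04. GCLM was also called, at -1.21, without KO1 replicate 2.

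After TGF-β, TXNRD1 and NQO1 were lower than in WT, opposite to the knockout clones, and GCLM was lower, as in KO1. TXNRD1 had 3918 and 4230 after TGF-β and fell by 0.62 ± 0.12 against WT (adjusted p = 0.0027). NQO1 had 2091 and 2615 and fell by 0.39 ± 0.085 (adjusted p = 0.0044). GCLM had 248 and 272 and fell by 0.72 ± 0.23 (adjusted p = 0.041). These libraries lay below both WT libraries for all 3 genes. They also lay below WT for NFE2L2 and above it for GCLC, which did not pass. SRXN1, at 991 and 998, differed by -0.02 ± 0.08, and GCLC (547 and 506), NFE2L2 (273 and 281) and KEAP1 (629 and 593) differed by 0.36 ± 0.24, -0.18 ± 0.17 and 0.23 ± 0.53, none passing. No member was called, beside 7.84% of all genes, and 3 of 8 passed the adjusted p, beside 17.7%. The median of the 8 members was -0.10. Scaled to the same total, the median of all genes moved to -0.20, the share of higher calls fell from 45.7% to 27.7%, and SRXN1 then stood at -0.26 (adjusted p = 0.045).

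Set directly against TGF-β-treated cells, the mean of KO1 and KO2 was higher by 2.32 ± 0.11 for TXNRD1, a 4.99-fold difference (adjusted p = 2.8e-10), by 1.61 ± 0.07 for NQO1, a 3.05-fold difference (adjusted p = 2.3e-10), by 0.73 ± 0.07 for SRXN1 (adjusted p = 7.9e-07) and by 0.73 ± 0.15 for NFE2L2 (adjusted p = 0.0011). For these 4 genes each of the 4 knockout libraries was above both TGF-β libraries, and this held for GCLC too. GCLC at 0.42 ± 0.21 and GCLM at 0.24 ± 0.20 did not pass (adjusted p = 0.13 and 0.38). TXNRD1 and NQO1 were called, beside 20.2% of all genes called and 10.3% called higher, and 4 of 8 passed the adjusted p, beside 36.3%.

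In the rescue clones, where SETD2 mRNA was 9.70 times that of KO2, the members were lower than in KO2. NQO1 had 2974 and 2853 in Rescue1 and 3605 and 3515 in Rescue2, near the 3047 and 3100 of WT in 2% serum. It fell by 0.91 ± 0.07 against KO2 (adjusted p = 2.1e-07). TXNRD1 had 9625 and 9959 in Rescue1 and 10268 and 10754 in Rescue2, between WT and KO2, which were both in 2% serum. It fell by 0.63 ± 0.11 against KO2 (adjusted p = 3.3e-04). SRXN1 had 1006 and 1020 in Rescue1 and 1139 and 1085 in Rescue2 and fell by 0.32 ± 0.07 (adjusted p = 0.0022). NFE2L2 had 395 and 321 in Rescue1 and 232 and 251 in Rescue2 and fell by 0.90 ± 0.15 (adjusted p = 2.0e-04). GCLC (352 and 588, 527 and 463) fell by 0.82 ± 0.21 (adjusted p = 0.0060), and GCLM (183 and 290, 352 and 313) by 0.58 ± 0.20 (adjusted p = 0.032). For all 6 genes the 4 rescue libraries lay below both KO2 libraries. The share of all genes whose libraries did not overlap was not counted, here or in the other comparisons. KEAP1 (280 and 760, 519 and 690) overlapped KO2. Rescue and serum (10% against 2%) cannot be told apart in this comparison, nor where the rescue clones are set beside WT in 2% serum. None of the members was called, beside 17.5% of all genes, and 6 of 8 passed the adjusted p, beside 34.5%. The median of all genes moved to 0.26 with libraries scaled to the same total, the share of higher calls rose from 44.8% to 64.2%, and the values of SRXN1 (-0.01, adjusted p = 0.92), GCLM (-0.28, adjusted p = 0.30) and GCLC (-0.52, adjusted p = 0.062) then no longer passed, while NQO1 (-0.61), NFE2L2 (-0.60) and TXNRD1 (-0.33) did. Without Rescue1 replicate 2 GCLC was called, at -1.01.

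Against WT eGFP, which was grown in the same serum, the rescue clones were slightly higher for NQO1, TXNRD1 and SRXN1. WT eGFP had 2565 and 2569 for NQO1, 7262 and 8127 for TXNRD1 and 772 and 804 for SRXN1. The mean of the rescue clones was higher by 0.33 ± 0.07 for NQO1 (adjusted p = 0.0035), by 0.40 ± 0.11 for TXNRD1 (adjusted p = 0.011) and by 0.43 ± 0.07 for SRXN1 (adjusted p = 2.4e-04). The WT lines with OCT2, PRRX1 or SOX2, in the same serum, had NQO1 means of 3187, 3016 and 3171. These lay between the means of Rescue1 (2914) and Rescue2 (3560), so the NQO1 difference holds against WT eGFP only. For TXNRD1 and SRXN1 every rescue library lay above every library of these lines. The rescue clones were not tested against these lines. NFE2L2, at 571 and 449 in WT eGFP, was lower in the rescue clones by -0.79 ± 0.15 (adjusted p = 8.1e-04). None was called, beside 13.1% of all genes, and 4 passed the adjusted p, beside 29.5%.

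The libraries labelled KO2 rescue, in 2% serum and without a gain of SETD2 mRNA, were higher than KO2 for NQO1 and SRXN1. NQO1 had 9471 and 9171 there and rose by 0.62 ± 0.085 against KO2 (adjusted p = 2.0e-04). SRXN1 had 2011 and 1976 and rose by 0.59 ± 0.08 (adjusted p = 1.5e-04). TXNRD1 (16803 and 15910) and NFE2L2 (531 and 554) overlapped KO2, with differences of 0.06 ± 0.12 and -0.02 ± 0.17. GCLC (781 and 685) and GCLM (424 and 420) differed by -0.20 ± 0.24 and 0.03 ± 0.23. None was called, beside 4.17% of all genes, and 2 of 8 passed the adjusted p, beside 10.3%.

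The WT line with the control vector in 10% serum gives a view of culture and vector together, which cannot be told apart. Against WT in 2% serum NFE2L2 rose by 0.69 ± 0.17 (adjusted p = 0.0069), and GCLM, at 210 and 266, fell by 0.85 ± 0.23 (adjusted p = 0.012). SRXN1 fell by 0.36 ± 0.08 (adjusted p = 0.0034) and NQO1 by 0.26 ± 0.085 (adjusted p = 0.035), while TXNRD1, at 0.29 ± 0.12, and GCLC, at 0.29 ± 0.24, did not pass (adjusted p = 0.10 and 0.43). None was called, beside 12.7% of all genes, and 4 passed the adjusted p, beside 26.6%. GCLM was called at -1.02 without WT eGFP replicate 2.

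Ectopic OCT2, PRRX1 or SOX2 left no member past the test. Leaving HMOX1 out, the log2 changes of the members against WT eGFP lay between -0.64 (KEAP1, SOX2) and 0.39 (GCLM, PRRX1), and the lowest adjusted p was 0.41. NQO1 was at 2974 to 3274 in these 6 libraries, TXNRD1 at 7520 to 9252 and SRXN1 at 772 to 933. For NQO1 all 6 lay above both WT eGFP libraries (2565 and 2569), by 0.30 with SOX2, 0.31 with OCT2 and 0.23 with PRRX1. TXNRD1 overlapped WT eGFP with OCT2 and with PRRX1, and SRXN1 with PRRX1. Few genes of any kind were called by limma in these lines: 3 with SOX2 (0.0206% by the call rule and by adjusted p alone), 5 with OCT2 (0.0343%, and 0.0411% by adjusted p alone) and 6 with PRRX1 (0.0411%, and 0.048%). With p not adjusted and the thresholds kept at 0.05 and 1, the calls numbered 391, 397 and 387 genes.

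Across the 11 groups the order of the levels was clearest for the same 3 enzymes. NQO1 was highest in the libraries labelled KO2 rescue (9321 ± 212, SD, n = 2), then KO1 (8399 ± 772) and KO2 (6068 ± 37.3), with none of these neighbours overlapping, and lowest after TGF-β (2353 ± 371). TXNRD1 ran from KO1 (26270 ± 1824) through the libraries labelled KO2 rescue and KO2, which overlapped, to TGF-β (4074 ± 221). SRXN1 was highest in KO1 and the libraries labelled KO2 rescue, which overlapped, then KO2. For each of these genes 4 of the 10 pairs of neighbours in the order overlapped, compared with 6 for NFE2L2, 8 for GCLC and GCLM, 9 for KEAP1 and 10 for HMOX1. Per kilobase of its main annotated transcript (GENCODE 44), the WT level was 1650 normalized counts for TXNRD1, 1219 for NQO1 and 399.9 for SRXN1, and between 87.6 (GCLM) and 206.7 (KEAP1) for the other members above HMOX1 at 1.62. Given the range of the ribosomal protein genes in this table, these values do not rank the members by expression.

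Over the 11 group means of log2(normalized count + 1), Pearson's r was 0.93 between NQO1 and SRXN1, 0.90 between NQO1 and TXNRD1 and 0.80 between TXNRD1 and SRXN1. NFE2L2 reached 0.64 with GCLC, 0.61 with HMOX1, 0.33 with NQO1 and with TXNRD1, 0.05 with GCLM, 0.04 with SRXN1 and -0.41 with KEAP1. These are descriptions over groups that share cells, clones and culture. HMOX1 was at 0 to 27.0 normalized counts, and its duplicates differed by a mean of 1.495 on the log2 scale. Neither its r with NFE2L2 nor its likeness to the genes named below can therefore be read. The duplicates of KEAP1 differed by a mean of 0.679, and 9 of the 10 pairs of neighbours in its order overlapped. The r and the likeness of KEAP1 therefore rest on an order of groups that is poorly fixed. Among 9812 genes with a mean of at least 50, those whose pattern was most like NQO1 were IFI27 (0.97) and BRI3 (0.96), and those most like TXNRD1 were RPAIN (0.98) and ADGRE5 (0.97). SRXN1 was most like NXPE3 (0.97) and SSU72 (0.96), NFE2L2 like UBE2E3 and GTF2IP4 (both 0.90), KEAP1 like PTGES3 (0.95) and ATG12 (0.93), GCLC like ZDHHC9 (0.93) and NBPF12 (0.91), GCLM like AIG1 and XRCC4 (both 0.87), and HMOX1 like LAMC1 (0.87) and SCPEP1 (0.85).

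Of 79 other genes of the pathway in the table, which were glutathione, thioredoxin, NADPH, heme and iron, detoxification and efflux genes, regulators, other antioxidant enzymes and oxidases, 72 were tested. In KO1 14 were called higher and 5 lower, or 26.4% of the 72, close to the 25% of all genes. In KO2 7 were called higher and 3 lower, or 13.9%, below the 16.3% of all genes. The medians were 0.13 and 0.09. In both clones 7 were called higher (SLC7A11, AKR1B1, ABCC3, SQSTM1, BACH1, BTRC and CYBA), or 9.72%, beside 6.95% of all genes, and 2 lower (ABCC4 and UGT1A6), or 2.78%, beside 5.73%. By group, the genes called higher in KO1 were 3 of 5 efflux genes, 5 of 14 regulators, 2 of 4 oxidases, 2 of 12 detoxification genes, 1 of 6 heme and iron genes, 1 of 14 glutathione genes and none of 5 NADPH, 9 other antioxidant and 3 thioredoxin genes, where 12% of all genes were. The thioredoxin genes include TXN, whose level cannot be read here. No NADPH, thioredoxin, heme and iron or other antioxidant gene was called higher in KO2.

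SLC7A11, the cystine transporter that feeds glutathione synthesis, had 1399 and 682 in WT, 5313 and 6203 in KO1, and 3854 and 4321 in KO2. It rose by 2.55 ± 0.22 and 2.06 ± 0.22 (adjusted p = 2.6e-07 and 4.2e-06), also after TGF-β (1.44 ± 0.22, adjusted p = 3.0e-04), and stood at 11851 and 12524 in the libraries labelled KO2 rescue. AKR1B1, an aldose reductase, had 1586 and 1992 in WT, 12011 and 11178 in KO1, and 7625 and 6826 in KO2, and rose by 2.70 ± 0.11 and 2.02 ± 0.11 (adjusted p = 9.6e-11 and 5.1e-09). ABCC3, an exporter of glucuronide conjugates, had 1773 and 1914 in WT, 7439 and 7117 in KO1, and 5554 and 5571 in KO2. SQSTM1, the adaptor p62 that binds KEAP1, had 6941 and 9326 in WT, 25002 and 18146 in KO1, and 18918 and 16461 in KO2. None of these 4 genes had a WT library that reached a KO library. In the rescue clones SLC7A11, AKR1B1 and ABCC3 were called lower than in KO2 (-1.59, -1.89 and -1.86), and SQSTM1 fell by 0.92 ± 0.13 (adjusted p = 4.9e-05).

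BACH1, the repressor that competes with NRF2 at the same elements, had 17.6 and 25.3 in WT, 747 and 1816 in KO1, and 451 and 467 in KO2, and rose by 5.72 ± 0.46 and 4.38 ± 0.46 (adjusted p = 1.2e-07 and 3.6e-06). Its WT count is in the range that ribosomal protein genes also take in this table. BTRC, a substrate receptor of a ubiquitin ligase for NRF2, was higher in both clones (430 to 505 in KO1 against 120 and 49.9 in WT) but also in WT eGFP (658 and 398). CYBA, the p22phox subunit of NADPH oxidases, had 139 and 157 in WT, 648 and 878 in KO1, and 595 and 346 in KO2. ABCC4, an exporter of cyclic nucleotides, fell in both clones (-1.19 ± 0.36 in each, adjusted p = 0.017 and 0.022). UGT1A6, a glucuronosyltransferase whose last exons are shared with its neighbours in the cluster, had 166 and 58.4 in WT and at most 1.16 in the knockout libraries, at least 37.4-fold lower than the WT mean against a floor of 3 per library. Without WT replicate 1 this bound is 19.5-fold. It stayed at 0 to 0.39 in the rescue clones.

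**Figure D4:**
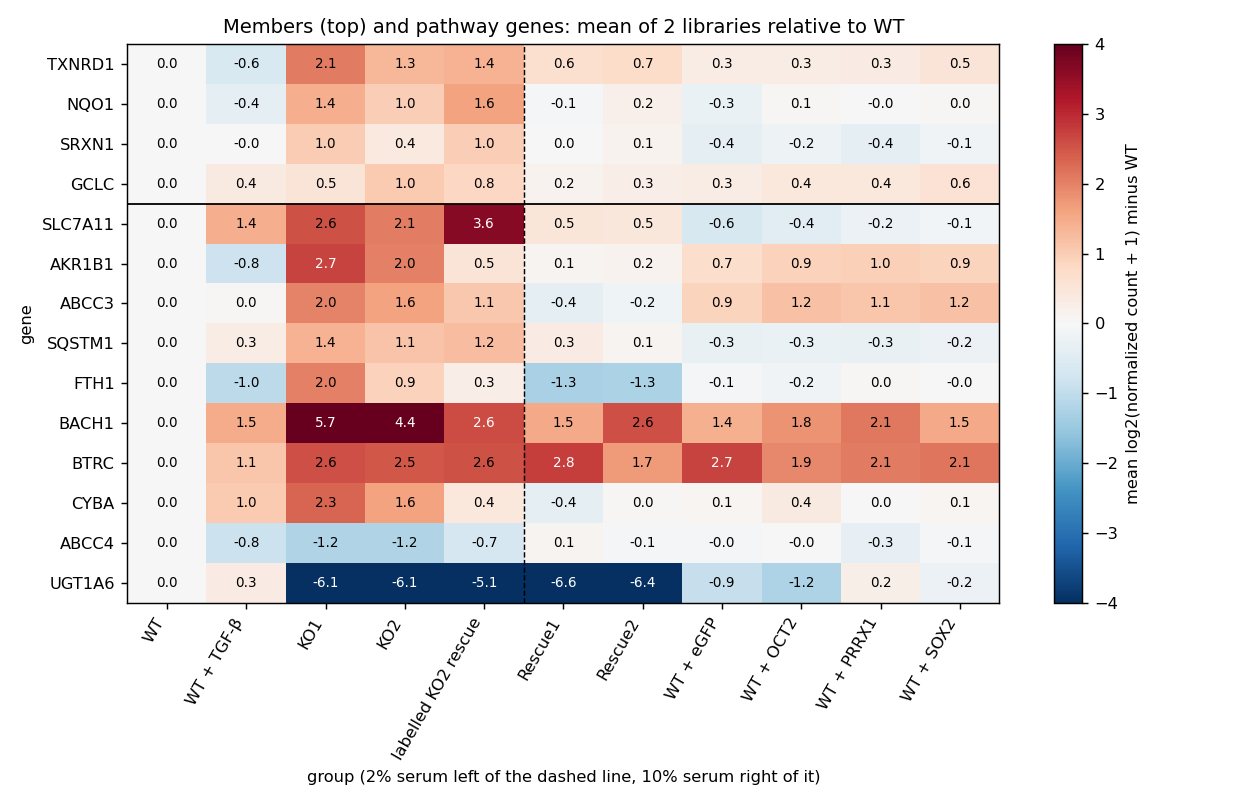
Mean log2(normalized count + 1) of the 2 libraries of a group minus that of WT (colour, printed in each cell, limited to 4 and -4 in colour) for 4 members (top), the pathway genes called in both knockout clones, and FTH1 (rows), by group (columns). The rows of TXNRD1, NQO1, SRXN1, SLC7A11, AKR1B1, ABCC3 and SQSTM1 are above 0 in KO1 and KO2, while UGT1A6 is low in the knockout and rescue groups alike.

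FTH1, the ferritin heavy chain, also differed between the clones. It had 110550 and 116341 in WT, 488420 and 434787 in KO1, and 218402 and 207660 in KO2, and was called higher in KO1 (2.02 ± 0.06, adjusted p = 8.4e-13) and rose by 0.91 ± 0.06 in KO2 (adjusted p = 1.0e-08), below the fold threshold. KO1 was above KO2 by 1.11 ± 0.06 (adjusted p = 8.6e-09). FTH1 has many processed pseudogenes, between which reads may be split. With GSTM3 higher and IDH1 (-1.14, adjusted p = 5.1e-08) and GSTM4 lower, it made up the 4 pathway genes called between the clones, or 5.56% of the 72, beside 6.97% of all genes.

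After TGF-β 5 pathway genes were called higher and 4 lower, or 12.5% of the 72, beside 7.84% of all genes. The largest rises were NOX4, an oxidase that makes hydrogen peroxide (1.54), BACH1 (1.48) and SLC7A11 (1.44). The largest falls were MGST1, a membrane glutathione transferase (-3.11), AKR1C2 (-1.48) and BLVRB, a biliverdin reductase (-1.09), and FTH1 also fell (-1.04). NOX4 had 381 and 380 after TGF-β, 194 and 86.5 in WT and 38.2 to 62.6 in the knockout clones. Set against TGF-β, the mean of KO1 and KO2 was called higher for 12 pathway genes, led by DUOX2 (3.58), BACH1 (3.57) and MGST1 (3.21), and lower for 3, UGT1A6, NOX4 (-2.92) and GSTM4 (-2.60). These are 20.8% of the 72, close to the 20.2% of all genes.

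In the rescue clones against KO2, 16 pathway genes were called lower and 2 higher, or 25% of the 72 beside 17.5% of all genes, with a median of -0.44 beside -0.03 for all genes. Called lower were 22.2% of the 72 and 9.65% of all genes. Rescue and serum (10% against 2%) cannot be told apart here either. The largest falls were AKR1C2 (44.5 in KO2 to 0.167), DUOX2 (-4.16) and AKR1C1 (-3.83), and the rises were NFE2L3 (1.19) and ABCC4 (1.19). DUOX2 was at 25.1 in one Rescue2 library and at 0 to 1.40 in the other 3 rescue libraries. AKR1C1 and AKR1C2 are near-identical copies between which reads may be split. FTH1 fell by 2.18 ± 0.05 against KO2 and by 1.19 ± 0.05 against WT eGFP. In the latter comparison 10 genes were called higher, led by GSTM3 (3.70), PGAM5 (2.50) and CBR1 (1.66), and 9 lower, among them AKR1C2, UGT1A6 and DUOX1 (-2.42), together 26.4% of the 72 beside 13.1% of all genes. GSTM3 had 290.5 and 320.8 in Rescue1 but 16.3 and 7.86 in Rescue2, with 7.45 and 1.67 in WT eGFP, so Rescue1 carries its mean. PGAM5 had 128 to 161 in the rescue clones and 7.67 and 73.5 in WT eGFP. The libraries labelled KO2 rescue had 4 genes higher than KO2, led by GSTM3 (4.26), SLC7A11 (1.58) and NFE2L3 (1.35), and 4 lower, led by AKR1C2 (-2.58), BACH1 (-1.75) and AKR1B1 (-1.49), together 11.1% beside 4.17% of all genes. In WT eGFP against WT 4 were called higher, led by GPX3 (3.77), OSGIN1 (17.05 against 0.597 normalized counts) and BTRC (2.70), and 12 lower, led by GSTM1, GSTM3 (-3.46) and PGAM5 (-2.45), together 22.2% beside 12.7%. GSTM1 was at 20.2 on average in WT and at 0 in WT eGFP. The median of the 72 in WT eGFP against WT was -0.46, beside 0 for all genes. Of the 72, 16.7% were called lower, beside 910 of all 14585 genes. The rescue clones against KO2, with the same difference in serum, had -0.44 and 22.2%. No pathway gene was called with SOX2, OCT2 or PRRX1.

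NFE2L2 lies on chromosome 2 at 177218667 to 177392756 (GRCh38, minus strand) with 65 annotated transcripts, and overlaps the protein-coding genes HNRNPA3 and AGPS on the opposite strand. TXNRD1 lies on chromosome 12 at 104215779 to 104350307 (plus strand) with 19 transcripts and overlaps EID3 on the same strand. NQO1 (chromosome 16, 69706996 to 69726668, minus strand) has 7 transcripts, KEAP1 (chromosome 19, 10486125 to 10503558, minus strand) 10, GCLC (chromosome 6, 53497341 to 53616970, minus strand) 14, GCLM (chromosome 1, 93885199 to 93909456, minus strand) 4 and HMOX1 (chromosome 22, 35380361 to 35394214, plus strand) 7. SRXN1 (chromosome 20, 646615 to 653200, minus strand) has a single one. It overlaps a further protein-coding annotation on the same strand, so its reads may be split between both.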

How the data were processed

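RNA-seq of 22 RPTEC libraries (TruSeq Stranded mRNA) was analysed. The authors quantified transcripts with salmon on the GRCh38 cDNA of Ensembl, and the submitters' processing notes name Salmon 1.9.0, DESeq2 1.26.0 and hg38. The deposited values are log2 values (11.32 to 21.28) and how they were normalized and transformed is not given in the sources used here. Their floor and spacing have the form of variance-stabilized counts, so they were inverted to normalized counts with the lowest value taken as a count of 0. If that reading is wrong, counts and fold changes of low genes are affected most. Groups came from the labels. The members and gene lists were chosen with earlier results of these data known. limma 3.58.1 (R 4.3.3, with data.table in version 1.17.8) was fitted to log2(normalized count + 1) of all 22 libraries with a variance trend and a mean per group, for 14585 genes reaching 10 normalized counts in 2 or more libraries, with Benjamini-Hochberg adjustment over all of them. A fold change on this scale understates that of low genes. A gene was called where its adjusted p was below 0.05 and its log2 change exceeded 1 in size. The procedure was tested on simulated data. Same-numbered libraries did not deviate together (55 pairs of groups, r from -0.14 to 0.1), so no pairing was used. Symbols and positions are from GENCODE 44 and promoters from RefSeq, read with Python 3.11.15, numpy 2.4.6 and pandas 2.3.3. Figures were drawn with matplotlib 3.10.9. Depth was approximated as the total divided by the value of 1 read. It limits the precision of low genes, for which counting error alone is large.

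All 8 members were named, of the pathway lists the genes called in the same direction in both knockout clones and up to 3 of the largest called rises and falls without overlap elsewhere, and for likeness the 2 genes with the highest r per member. FTH1 outside the comparison of the clones, SETD2, the marker genes, the ribosomal protein genes, TXN, GAPDH and, in comparisons where they were not picked, the genes called in both clones were named outside this rule after their values were seen. ME1, FTL, CBR3 and SOD2 were not analysed here. The alternatives tried were a pseudocount of 0.5 or 5, testing without a filter, keeping genes with a mean of 50 or more, libraries scaled to the same total, quantile normalization, only the groups compared, a replicate block and each library left out in turn.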

Additional observations from a re-analysis of the deposited data

Results flagged for a closer look

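KO1 and KO2 differed in the size of their change against WT for 4 members, by the limma test of KO1 against KO2 itself. The log2 difference, KO1 minus KO2, was 0.74 for TXNRD1, 0.63 for SRXN1 and 0.47 for NQO1, with both KO1 libraries above both KO2 libraries, and -0.86 for GCLM, with both KO1 libraries below. Each clone is a single line, so clone and knockout cannot be told apart. Groups of 2 libraries were too small to be checked for a single library that stands apart.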

How the results depend on the processing

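Of 150 alternatives for the count of called members 144 stayed within 1.5 times the value given, and of 694 log2 changes 668 kept direction and call. With libraries brought to equal totals, the called members were 1 in KO2 and 1 between KO1 and KO2 (pathway genes 2), 6 genes were called with SOX2, and signs turned for KEAP1 after TGF-β (-0.01) and in KO1 (-0.07), NFE2L2 in KO1 (-0.11) and NFE2L2 in the libraries labelled KO2 rescue (0.05, and 0 under quantile normalization). Fitting only the libraries compared left pathway calls of 0 (TGF-β), 11 (KO1), 6 (KO2) and 0 (KO1 against KO2). Pathway calls were 5 for the libraries labelled KO2 rescue and 5 for WT eGFP against WT. Calls over all genes were 0 (TGF-β), 1912 (KO1), 1681 (KO2), 1 (KO1 against KO2), 715 (WT eGFP) and 0 with SOX2, OCT2 and PRRX1. Few residual degrees of freedom remain in these fits, and whether that is the cause was not tested. For SOX2, OCT2 and PRRX1 a pseudocount of 0.5 gave 7 calls with SOX2, a pseudocount of 5 gave 3 with OCT2, no filter gave 16, 14 and 18, and a mean of at least 50 gave 3 with OCT2, 3 with PRRX1 and 1942 for the knockout mean against TGF-β, with fewer genes tested. With each library left out in turn, the called members ranged from 1 to 2 in KO2 and from 0 to 1 for KO1 against KO2, the rescue clones against KO2 and WT eGFP. Pathway calls ranged from 2 to 7 (TGF-β; 2 without WT replicate 2, 5 without TGF-β replicate 1), 2 to 8 (KO1 against KO2; 8 without KO1 replicate 1), 5 to 6 (labelled KO2 rescue), 10 to 14 (WT eGFP) and 0 to 1 (SOX2). Calls over all genes ranged from 739 to 1308 (TGF-β; 739 without WT replicate 2), 642 to 1745 (KO1 against KO2; 642 without KO2 replicate 2 and 1745 without KO1 replicate 1), 7 to 36 (SOX2), 3 to 37 (OCT2) and 7 to 41 (PRRX1), the highest without WT eGFP replicate 2. Signs turned within -0.03 to 0.48 for KEAP1 and -0.06 to 0.01 for SRXN1 after TGF-β, -0.09 to 0 for GCLM in KO2, and -0.06 to 0.03 for NFE2L2, -0.02 to 0.07 for GCLM and -0.01 to 0.13 for TXNRD1 in the libraries labelled KO2 rescue. The other log2 changes, not given one by one, were 340 in the 10% serum lines with 26 turned and 156 elsewhere with 13 turned. The cause of these shifts was not tested. With the replicate number as a block the called members were 3 in KO1, 2 in KO2 and 0 after TGF-β and pathway calls 19, 10 and 8, and no count moved by over 1.5 times. Groups of 2, clones that are single lines and low counts limit all of these results.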
